A study of Mus musculus with 12 samples.

Results

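Mouse embryonic fibroblasts that expressed N-VEGF without a nuclear localization signal were compared with and without doxycycline (dox) by RNA sequencing. These are the 6 libraries whose labels name N-VEGF alone, 3 without dox and 3 with dox, out of 12 libraries in the series. The other 6 come from cells that expressed NLS-N-VEGF, the same protein fused to a nuclear localization signal, again 3 without and 3 with dox. All 12 libraries come from fibroblasts infected with a lentiviral Tet-On vector and selected with puromycin as a pool, NIH3T3 cells according to the methods of the study, so even the libraries without dox carry the vector and the uninduced construct. N-VEGF is cloned with a histidine tag, and "untagged" refers only to the missing localization signal. The library labels carry a number and a suffix, which together give the replicate labels 1_120519, 2_120519 and 2_290419. Each label occurs in all 4 groups, so that every dox library has a no dox partner. Values of 3 libraries are given in this order throughout. The meaning of the suffix is not stated in the labels.

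VEGF-A is the growth factor through which oxygen-starved tissue calls in blood vessels, and its gene is a classical target of the hypoxia-inducible factor HIF-1. A long VEGF-A isoform is translated from a start codon upstream of the usual one, and its cleavage releases the N-terminal piece termed N-VEGF. In a Tet-On vector, dox binds an engineered transactivator, which then switches on the promoter in front of the insert. Dox is also an antibiotic that can slow translation on mitochondrial ribosomes, and no library of dox-treated cells without a construct was analysed here. The drug, the transactivator and the induced N-VEGF therefore cannot be told apart in the comparison of dox with no dox.

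The forward cloning oligos are shown because they hold the designed difference between the populations. Both carry an EcoRI site, a start codon, histidine codons and the first bases of N-VEGF, and the capitals mark the 48 bases found only in the NLS-N-VEGF oligo, which code for the localization signal.
N-VEGF forward oligo: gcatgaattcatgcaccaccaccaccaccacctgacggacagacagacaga
NLS-N-VEGF forward oligo: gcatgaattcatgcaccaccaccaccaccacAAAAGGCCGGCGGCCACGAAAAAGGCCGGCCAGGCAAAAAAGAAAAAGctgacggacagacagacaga

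Total counts were 16684018, 16060552 and 17316049 in the libraries without dox and 15998428, 18636914 and 14921555 with dox. A level of 3 counts corresponded to between 0.161 and 0.201 counts per 1000000 (CPM) in these libraries, a floor that covers counting error only. The cells had the markers of fibroblasts. The 14 fibroblast markers summed to between 12062 and 14829 CPM per library, against 3.77 to 5.48 CPM for 10 endothelial, 2.03 to 3.79 CPM for 10 epithelial and 10.2 to 13.2 CPM for 10 macrophage markers. Kdr, the main VEGF-A receptor of endothelium, had 0 counts in all 6 libraries, as had Cldn5 and Erg among the endothelial, 4 of the epithelial and 2 of the macrophage markers. In such bulk libraries, fewer cells of a type and less RNA per cell cannot be told apart.

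The no dox library 1_120519 stood apart, and values without it are therefore given for the construct and for several genes and lists. It lay at 11.3 on the second principal component of all 12 libraries, which held 8.44% of the variance, and the other libraries lay between -4.14 and 2.90. Of the 13608 genes tested, 8238 lay outside the CPM range of the other 7 libraries labelled 1_120519 or 2_120519. Its mitochondrially encoded transcripts took 3.92% of counts, against 5.10% to 6.17% in the other N-VEGF libraries, and it had the fewest genes detected, 19976. Malat1, a nuclear non-coding RNA, had 219.8 CPM in it and 708 to 1013 CPM in the other 7.

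**Figure D1:**
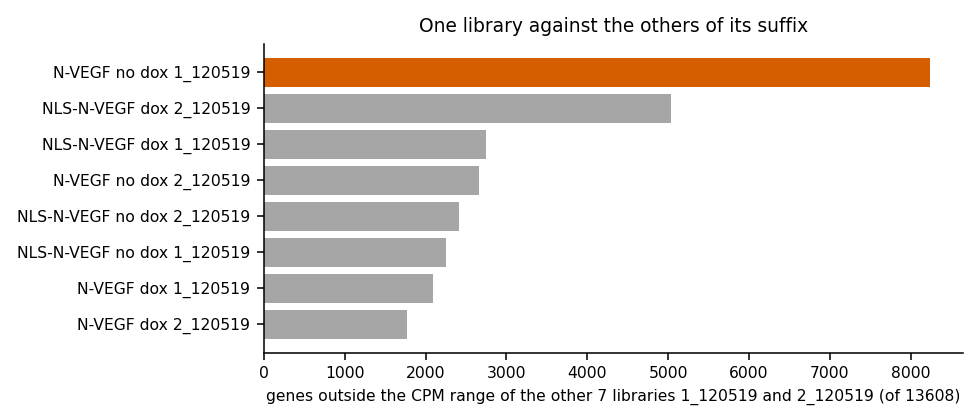
Each bar gives, for a library labelled 1_120519 or 2_120519, the number of the 13608 tested genes whose CPM lay outside the range of the other 7 such libraries. The no dox library 1_120519 of N-VEGF cells reached 8238 genes, and the other libraries lay between 1772 and 5037.

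The construct was followed first, because it checks the labels. Its insert has a row of its own, ORF_NLS, positions 1 to 592, to which reads of either construct can align. The no dox libraries had 5, 10 and 7 counts of it and the dox libraries 121, 149 and 268. In CPM these were 0.314, 0.616 and 0.408 before and 7.56, 8.08 and 17.9 after induction, so that the groups were far apart and the dox library 2_290419 was the highest. Its fitted log2 fold change was 4.65 (SE 0.31, adjusted p = 1.3e-07, edgeR), a 25.1-fold rise from 0.446 ± 0.155 to 11.2 ± 5.85 CPM (SD, n = 3). Without the no dox library 1_120519 it was 4.73. Counts above the floor without dox mean that reads of the insert were found before induction. How reads shared by the insert and the Vegfa gene were assigned was not stated in the sources used here.

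Few genes were called. With the replicate label as a block, 15 of 13608 features passed an adjusted p of 0.05 in edgeR's quasi-likelihood test, which is 0.11% of those tested. They were the construct and 14 genes. Of the 15, 11 were higher (0.0808%) and 4 lower (0.0294%) with dox, and 5 changed at least 2-fold (0.0367%). At an unadjusted p under 0.05 there were 735 genes (5.4%), 353 higher (2.59%) and 382 lower (2.81%). The 15 had the same sign in all 3 pairs. In 12 of them the dox and no dox libraries did not overlap, which held for 534 of all genes (3.92%), and in Plpp3, Trib2 and Adamts1 they did overlap. Nothing in the labels says that the libraries come from separate cultures, so the p-values measure the spread between these libraries, which may be technical.

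**Figure D2:**
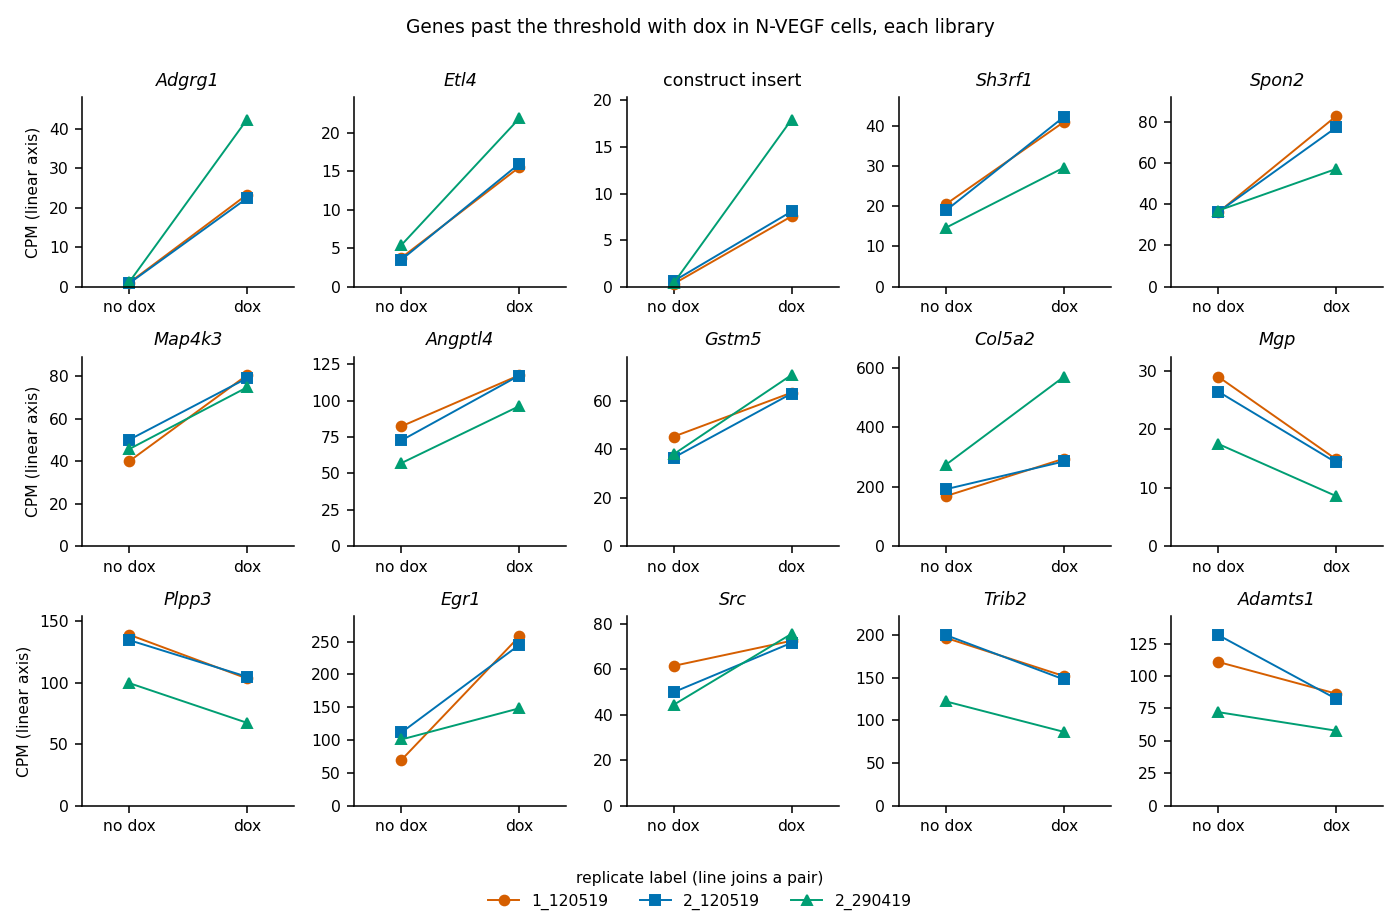
CPM on a linear axis in each N-VEGF library for the 15 called features, without and with dox; a line joins the libraries of a replicate label. Adgrg1 and the construct rose from about the bottom of their axes, with the dox library 2_290419 highest, whereas Sh3rf1, Spon2 and Egr1 were lowest there among the dox libraries.

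Adgrg1 rose most. It encodes GPR56, an adhesion G protein-coupled receptor (ENSMUSG00000031785, GRCm38 chromosome 8, 94974751 to 95014217). It stood at 1.01, 0.863 and 1.17 CPM in the no dox libraries and at 23.3, 22.4 and 42.3 CPM in the dox libraries. The lowest dox library was thus far above the highest no dox library. The log2 fold change was 4.86 (SE 0.22, adjusted p = 6.73e-10), a 29.0-fold rise, and 5.03 without the no dox library 1_120519. It was called under all 17 alternative settings. Of 9 adhesion receptor genes tested, Adgrg1 was the only one called, and the median of the family was 0.02. Adgrl3, a neuronal member, had a log2 fold change of -0.40 (adjusted p = 0.714).

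Etl4 was next among the genes (ENSMUSG00000036617, chromosome 2, 19909780 to 20810713). It encodes sickle tail, a protein of the developing notochord and intervertebral disc. It stood at 3.77, 3.51 and 5.42 CPM in the no dox libraries and at 15.5, 15.9 and 21.8 CPM in the dox libraries. The groups did not overlap, and in both of them library 2_290419 was the highest. Its fitted log2 fold change was 2.08 (SE 0.13, adjusted p = 1.25e-07), or 4.21-fold.

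The start regions of both genes are shown because these genes led the response. The windows run from 250 bases before to 50 bases after a RefSeq transcription start in build GRCm38.p6, on the plus strand, and 8 of the 14 called genes had 1 or more. Capitals mark matches on either strand to 3 motifs, of which ACGTG is the core of the hypoxia response element and was held by 19.6% of 32851 mouse windows of the same length. The AP-1 site, spelt TGANTCA with any base at the middle position, was held by 7.81% of these windows. The TATA box, spelt TATAAA for this search, was held by 13.6% of them.
Adgrg1 upstream start, chr8:94976859-94977158: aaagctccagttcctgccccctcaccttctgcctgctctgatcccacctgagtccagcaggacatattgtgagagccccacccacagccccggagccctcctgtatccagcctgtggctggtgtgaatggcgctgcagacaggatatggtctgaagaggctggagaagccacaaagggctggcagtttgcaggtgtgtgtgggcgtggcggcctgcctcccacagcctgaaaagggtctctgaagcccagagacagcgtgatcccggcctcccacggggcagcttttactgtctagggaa
Adgrg1 downstream start, chr8:94984149-94984448: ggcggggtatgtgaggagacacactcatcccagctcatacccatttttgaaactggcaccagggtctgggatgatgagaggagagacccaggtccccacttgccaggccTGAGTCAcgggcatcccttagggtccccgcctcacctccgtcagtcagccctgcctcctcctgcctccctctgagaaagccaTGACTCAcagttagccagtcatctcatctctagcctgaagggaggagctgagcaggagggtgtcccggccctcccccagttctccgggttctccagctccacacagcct
Etl4, chr2:20509797-20510096: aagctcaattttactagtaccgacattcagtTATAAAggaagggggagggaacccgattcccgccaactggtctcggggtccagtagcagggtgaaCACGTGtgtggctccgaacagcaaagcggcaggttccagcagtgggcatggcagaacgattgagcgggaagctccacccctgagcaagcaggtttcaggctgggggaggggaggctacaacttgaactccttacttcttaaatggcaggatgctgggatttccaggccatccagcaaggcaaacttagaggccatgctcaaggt
The upstream Adgrg1 window held none of these motifs. The downstream one held TGANTCA at -141 and -59 from the start. The Etl4 window held TATAAA at -219 and CACGTG, whose 2 overlapping reads of ACGTG begin at -154 and -153. The other Etl4 windows, at chr2:20289663-20289962 and chr2:20519263-20519562, held none. A match of letters says nothing about whether a factor binds there, and the counts do not say which start was used.

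No tested gene in the neighbourhood of the leading genes was called. Within 200000 bases of Adgrg1, 9 genes were tested and 0 were called, with log2 fold changes from -0.71 (Cx3cl1, adjusted p = 0.566) to -0.04. Around Etl4, Egr1 and Sh3rf1, 0 of 2, 0 of 8 and 0 of 3 tested genes were called.

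Sh3rf1 encodes POSH, a scaffold and ubiquitin ligase of the JNK pathway (ENSMUSG00000031642, chromosome 8, 61223872 to 61396071). It stood at 20.6, 19.0 and 14.7 CPM in the no dox libraries and at 40.9, 42.2 and 29.6 CPM in the dox libraries. The 2.08-fold rise (log2 1.05, SE 0.09, adjusted p = 9.53e-06) was of similar size in the 3 pairs. Map4k3 encodes GLK, a kinase upstream of JNK that also acts in amino acid sensing (ENSMUSG00000024242, chromosome 17, 80580512 to 80728093). Its CPM of 39.97, 50.09 and 45.69 without dox became 80.5, 79.0 and 74.7 with dox. Its log2 fold change of 0.79 (SE 0.08, adjusted p = 4.3e-05) was called in all 17 alternatives, and was 0.69 without the no dox library 1_120519. The other 6 kinases of its family were not called, and the family median was 0.05.

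Src, the founding cytoplasmic tyrosine kinase (ENSMUSG00000027646, chromosome 2, 157418444 to 157471862), stood at 61.52, 49.97 and 44.41 CPM in the no dox libraries and at 72.6, 71.7 and 75.6 CPM in the dox libraries. The dox libraries lay close together, and the no dox library 1_120519 was nearest to them. The log2 fold change was 0.50 (SE 0.09, adjusted p = 0.0241) with that library and 0.62 (adjusted p = 2.62e-04) without it. Trib2, a pseudokinase that directs proteins to degradation (ENSMUSG00000020601, chromosome 12, 15791727 to 15816922), stood at 196.8, 200.05 and 122.3 CPM in the no dox libraries and at 152.0, 148.1 and 86.6 CPM in the dox libraries. It fell in each pair, but the no dox library 2_290419 lay below the dox libraries 1_120519 and 2_120519. The fitted log2 fold change was -0.43 (SE 0.08, adjusted p = 0.0345).

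Egr1, an immediate early transcription factor (ENSMUSG00000038418, chromosome 18, 34859823 to 34864984), stood at 69.8, 111.6 and 100.9 CPM in the no dox libraries and at 257.8, 244.9 and 148.3 CPM in the dox libraries. The no dox library 1_120519 was the lowest, and the log2 fold change of 1.17 (SE 0.20, adjusted p = 0.0241) became 0.91 (adjusted p = 0.0444) without it. In NLS-N-VEGF cells Egr1 stood at 241.4, 238.6 and 112.7 CPM in the no dox libraries and at 171.6, 233.9 and 192.6 CPM in the dox libraries, so that the uninduced libraries 1_120519 and 2_120519 were within the range of the dox libraries of N-VEGF cells. Of 21 immediate early genes, Egr1 was the only one called, and the list median was 0.02. Klf4 and Ier2 had log2 fold changes of 0.36 and 0.46 (adjusted p = 0.0856 and 0.0681), and the nuclear receptor gene Nr4a1 had -0.25 (adjusted p = 0.701). Of the 21 genes, 12 lay above and 9 below 0. The call of Egr1 was kept in 6 of 17 alternatives.

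Genes of the extracellular matrix were called in both directions. Spon2, the secreted matrix protein spondin 2 (ENSMUSG00000037379, chromosome 5, 33198184 to 33218455), stood at 36.1, 36.2 and 36.9 CPM in the no dox libraries and at 82.6, 77.1 and 57.1 CPM in the dox libraries. The no dox libraries were nearly equal, and the dox library 2_290419 was the lowest of the dox group. Its fitted log2 fold change was 0.97 (SE 0.09, adjusted p = 2.69e-05), and 0.88 without the no dox library 1_120519. Col5a2, a chain of the fibril-forming collagen V (ENSMUSG00000026042, chromosome 1, 45374321 to 45503282), stood at 168.5, 191.7 and 274.2 CPM in the no dox libraries and at 294.0, 284.8 and 569.3 CPM in the dox libraries. The log2 fold change came to 0.81 (SE 0.12, adjusted p = 0.00369), and library 2_290419 was the highest of each group.

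Mgp, matrix Gla protein, an inhibitor of calcification (ENSMUSG00000030218, chromosome 6, 136872435 to 136875823), stood at 29.0, 26.4 and 17.5 CPM in the no dox libraries and at 14.9, 14.3 and 8.57 CPM in the dox libraries. It fell by 0.94 on the log2 scale (SE 0.16, adjusted p = 0.0241), the largest fall among the calls. Adamts1, a secreted protease that cleaves proteoglycans (ENSMUSG00000022893, chromosome 16, 85793827 to 85803113), stood at 110.9, 131.6 and 72.2 CPM in the no dox libraries and at 86.4, 82.5 and 57.9 CPM in the dox libraries. It fell by 0.46 (SE 0.08, adjusted p = 0.0433). Plpp3, a surface phosphatase that breaks down lysophosphatidic acid (ENSMUSG00000028517, chromosome 4, 105157347 to 105232764), stood at 138.8, 134.4 and 99.5 CPM in the no dox libraries and at 103.3, 104.7 and 67.3 CPM in the dox libraries. It fell by 0.45 (SE 0.08, adjusted p = 0.0241). For Adamts1 and Plpp3 the groups overlapped through the low no dox library 2_290419.

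Angptl4, a secreted inhibitor of lipoprotein lipase and a target of HIF-1 and PPAR receptors (ENSMUSG00000002289, chromosome 17, 33773750 to 33781575), stood at 82.5, 72.8 and 57.2 CPM in the no dox libraries and at 117.5, 117.3 and 96.3 CPM in the dox libraries. The groups did not overlap, and the log2 fold change was 0.65 (SE 0.08, adjusted p = 4.51e-04), or 0.74 without the no dox library 1_120519. Gstm5, a glutathione transferase (ENSMUSG00000004032, chromosome 3, 107895821 to 107898686), stood at 45.2, 36.5 and 37.9 CPM in the no dox libraries and at 63.3, 62.9 and 70.6 CPM in the dox libraries. This gave a log2 fold change of 0.72 (SE 0.09, adjusted p = 0.00133), or 0.83 without the no dox library 1_120519. An antisense gene overlaps 13.9% of its exon sequence, and the strand setting of the counting was not stated, so its counts are uncertain.

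The list grew when the no dox library 1_120519 was left out. Then 31 of 13947 genes were called (0.222%), 19 higher and 12 lower, and all 15 were among them. Of the 16 further genes, 8 were higher and 8 lower, and 15 had an unadjusted p under 0.05 with all libraries. Just outside the threshold with all libraries, 13 genes had an adjusted p between 0.05 and 0.1, of which Dcn was the nearest. Dcn encodes decorin, a collagen-binding proteoglycan, and stood at 76.9, 81.6 and 65.9 CPM in the no dox libraries and at 55.9, 54.2 and 33.3 CPM in the dox libraries. The fitted log2 fold change was -0.65 (adjusted p = 0.0556) with all libraries and -0.68 (adjusted p = 0.0389) without that library. Pdgfra, the receptor for platelet-derived growth factor that marks fibroblasts, stood at 405.2, 422.6 and 168.2 CPM in the no dox libraries and at 319.5, 291.2 and 92.9 CPM in the dox libraries. Its log2 fold change moved from -0.56 (adjusted p = 0.0572) to -0.61 (adjusted p = 0.0285).

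Further genes passed without that library but not in the same fit with all libraries. Tinagl1, a basement membrane protein, Tspan9, a tetraspanin, Rps6kc1, a kinase-like protein of endosomes, and Trim16, a ubiquitin ligase, had log2 fold changes of 0.81, 0.49, 0.45 and 0.43. Ephx1, which hydrolyses epoxides, and Tpst2, which sulfates tyrosines of secreted proteins, had 0.42 and 0.42. Cp, the copper carrier ceruloplasmin, had -0.63, and the unnamed transcripts Gm23935 and Gm44873 had -0.92 and -0.61. With all libraries these 9 genes had smaller log2 fold changes in size, between 0.32 and 0.67 upward and -0.69 and -0.54 downward.

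Hypoxia genes were followed because VEGF-A biology is bound to them. Vegfa stood at 78.9, 92.5 and 74.1 CPM in the no dox libraries and at 92.7, 85.6 and 73.3 CPM in the dox libraries, a log2 fold change of 0.03 (SE 0.10, adjusted p = 0.973). Hif1a, the oxygen-regulated subunit of HIF-1, stood at 180.8, 189.7 and 152.1 CPM in the no dox libraries and at 201.2, 203.4 and 129.6 CPM in the dox libraries, a log2 fold change of 0.01 (SE 0.08, adjusted p = 0.992). For both genes the dox and no dox libraries overlapped. Of 38 HIF targets tested, 1 was called higher, Angptl4, and 0 lower. The median was -0.09, with 11 targets above and 27 below 0, against a median of 0.00 over all genes. Lox, which cross-links collagen, Adm, the vasodilator adrenomedullin, and Ddit4, an inhibitor of mTORC1, had log2 fold changes of -0.49, -0.54 and -0.36 (adjusted p = 0.226, 0.419 and 0.273). Without the no dox library 1_120519 the median of the HIF targets was 0.00.

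Of 10 VEGF ligands and receptors 7 were tested and 0 were called. Their median was 0.00. Nrp1, the co-receptor neuropilin 1, stood at 61.5, 60.1 and 58.7 CPM in the no dox libraries and at 81.9, 77.2 and 59.8 CPM in the dox libraries. The log2 fold change came to 0.27 (adjusted p = 0.583), with hardly any difference in the pair 2_290419. The ligand Pgf and the receptor Flt1 each had a log2 fold change of -0.35 (adjusted p = 0.891).

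The 13 protein-coding genes of the mitochondrial genome stood highest among the lists of more than 2 genes. Their median log2 fold change was 0.31, 12 of 13 were above 0, and 0 were called. Among them 7 had an unadjusted p under 0.05, all higher, where 2.59% of all genes tested were higher at that p. These p-values come from the fit that includes the no dox library 1_120519. Together they summed to 40274, 50721 and 50518 CPM in the no dox libraries and to 53055, 60889 and 53024 CPM in the dox libraries, and the no dox library 1_120519 was the lowest. The median of the pairs was 0.53, 0.35 and 0.07, and the median of the list was 0.13 without that library and 0.22 in NLS-N-VEGF cells. mt-Cytb, of complex III, stood at 3094, 5122 and 6265 CPM in the no dox libraries and at 6037, 6531 and 6879 CPM in the dox libraries (log2 0.46, adjusted p = 0.566). mt-Co2, mt-Nd4 and mt-Atp6 had 0.43, 0.39 and 0.36. Without the no dox library 1_120519 the log2 fold changes of mt-Cytb, mt-Co2, mt-Nd4 and mt-Atp6 were 0.22, 0.18, 0.18 and 0.22. The nuclear partners of these genes lay near 0. Among 86 nuclear genes of the respiratory chain the median was -0.01 and among 77 mitochondrial ribosomal proteins 0.01. It was 0.00 among 16 mitochondrial chaperones and proteases, with 0 calls in each list. In the pair 1_120519 these 3 medians were -0.20, -0.13 and -0.10, and in the other pairs they lay between 0.04 and 0.10. Without the no dox library 1_120519 they were 0.05, 0.06 and 0.05, beside the 0.13 of the mitochondrially encoded genes.

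Fibroblast and matrix genes lay mostly below 0. Of 13 fibroblast markers tested, 10 were below 0 and 0 were called. Of these 10, 6 had an unadjusted p under 0.05, where 2.81% of all genes tested were lower at that p. The median was -0.17, or -0.13 without the no dox library 1_120519, and the log2 fold changes ran from -1.54 to 0.12. Fn1 and Col3a1, which encode fibronectin and collagen III, had -0.28 and -0.36 (adjusted p = 0.722 and 0.888). The 22 matricellular genes had a median of -0.16, with 16 below 0. Spon2 was called higher and Mgp lower. Cyr61, a matricellular protein induced by YAP, had 0.62 (adjusted p = 0.409). Of the macrophage markers, Csf1r stood at 6.36 to 8.63 CPM and Cd68 at 2.44 to 5.30 CPM, whereas C1qa and C1qc had 0 counts in the 6 libraries, and the part of these markers in the values above was not tested.

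Most other lists lay near 0. Calls fell in 12 of the 30 lists, and 18 lists had none, among them targets of ATF4, which responds to amino acid shortage and mitochondrial stress, with a median of -0.03 over 30 genes. Cell cycle genes (-0.05 over 24), p53 targets (0.00 over 17), genes of the unfolded protein response (0.01 over 18) and interferon-stimulated genes (0.05 over 12) had 0 calls. Cholesterol synthesis genes had a median of -0.09 with 19 of 23 below 0 and 0 calls. Several lists held 1 call each beside a median near 0. These were Gstm5 among 18 targets of NRF2, the regulator of antioxidant genes (median -0.06), Adamts1 among 21 matrix proteases and their inhibitors (-0.07) and Plpp3 among 16 genes of lysophosphatidic acid metabolism and signalling (-0.05). Mgp was the only call among 18 genes of the TGF-beta and BMP response (-0.04). Contractile genes under SRF (0.04 over 16), apoptosis genes (-0.06 over 16) and oxygen-sensing genes (-0.05 over 8) had 0 calls. Without the no dox library 1_120519 the medians were 0.04 for ATF4 targets, 0.01 for cell cycle genes and 0.03 for NRF2 targets. They were 0.05 for the TGF-beta and BMP response, 0.05 for the unfolded protein response and 0.00 for lysophosphatidic acid genes. Further medians were 0.01 (p53), -0.01 (interferon), -0.05 (cholesterol), -0.10 (proteases), 0.09 (SRF), -0.04 (apoptosis) and 0.00 (oxygen sensing).

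**Figure D3:**
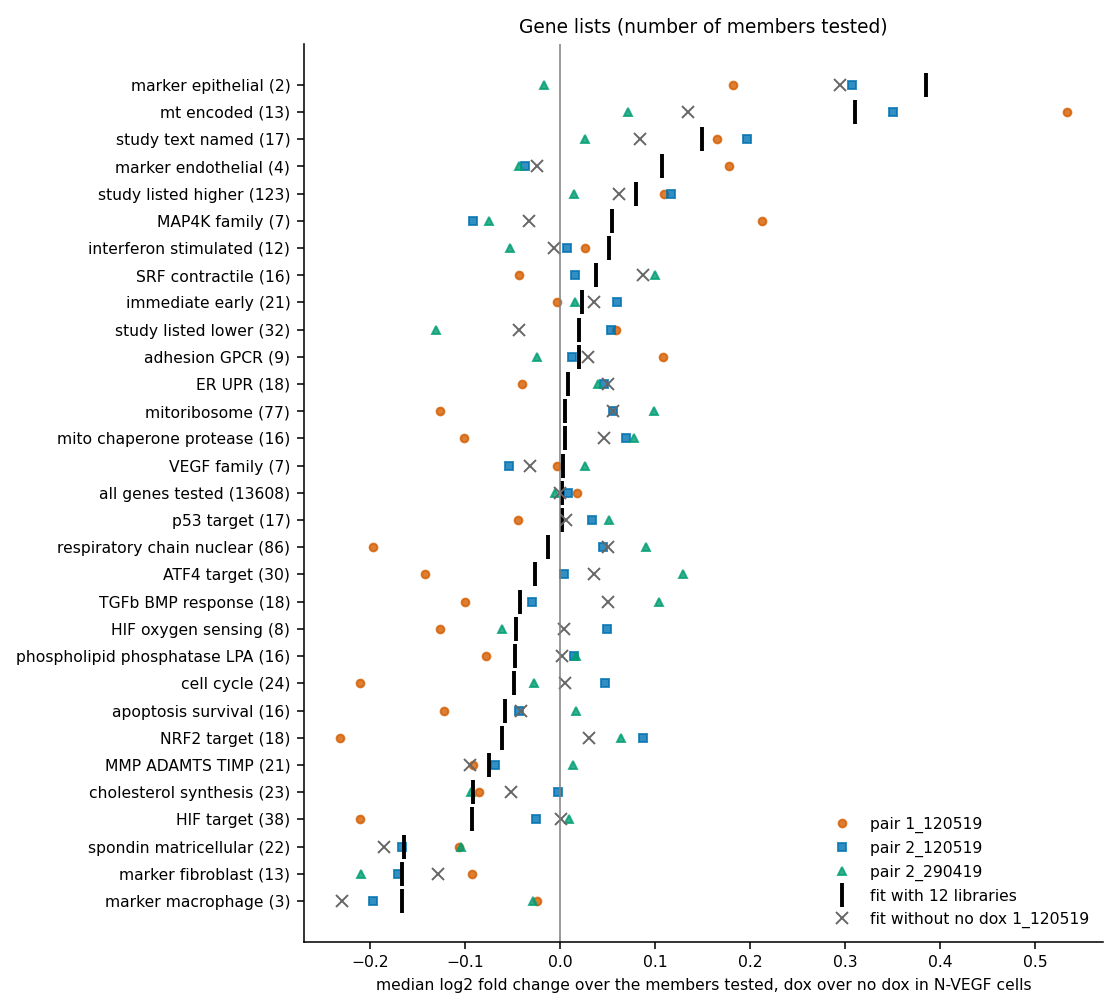
Median log2 fold change of dox over no dox in N-VEGF cells for each gene list, with the number of members tested. Coloured points are the medians of the 3 pairs (log2 of CPM plus 2), black bars the fit to 12 libraries and crosses the fit without the no dox library 1_120519. The mitochondrially encoded genes lay at 0.31 and at 0.13 without that library.

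Genes that the study itself listed for NLS-N-VEGF cells were followed by name. The study chose them on these samples, so they are no independent evidence of a direction. It describes keeping genes that changed in NLS-N-VEGF cells with dox, but neither there without dox nor in dox-treated N-VEGF cells. Its cut also required a fold change of at least 2, which a call here does not. By qPCR of selected genes it reports no effect of dox in N-VEGF cells. Of 123 genes listed as higher, 8 were called higher and 1 lower in N-VEGF cells, with a median of 0.08 and 90 above 0. Over all genes tested, 0.0808% were called higher and 0.0294% lower. Of the 32 listed as lower, 2 were called lower, with a median of 0.02. Without the no dox library 1_120519 the medians of the genes listed as higher and as lower were 0.06 and -0.04. The 17 genes named in the text of the study had a median of 0.15 with 16 above 0, and 3 were called, Adgrg1, Sh3rf1 and Src. In NLS-N-VEGF cells the medians of these 3 lists were 0.28, 0.26 and 0.31. In the contrast of dox with no dox used here, the genes listed as lower had a median above 0 in NLS-N-VEGF cells. Of these genes, 1 was called there. The selection of the study also drew on dox-treated N-VEGF cells and used a Wald test between 2 conditions, so this is not the same comparison.

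The NLS-N-VEGF libraries took no part in the N-VEGF contrast other than through the shared spread and block, and show the same genes in a second induction. There 17 genes were called (0.125%). All 15 features called in N-VEGF cells had the same sign there, against 59.6% of all genes. For Egr1 the log2 fold change there was 0.06 (95% interval -0.36 to 0.47), so its sign is not settled. Of the 15, 8 were also called, namely the construct, Adgrg1, Etl4, Sh3rf1, Spon2, Map4k3, Mgp and Src. Adgrg1 stood at 1.495, 1.006 and 1.285 CPM in the no dox libraries and at 9.588, 10.01 and 25.75 CPM in the dox libraries in NLS-N-VEGF cells, a log2 fold change of 3.47. The construct stood at 0.288, 0.440 and 0.857 CPM in the no dox libraries and at 2.57, 2.58 and 10.2 CPM in the dox libraries, a log2 fold change of 3.19. Within each replicate label, construct and Adgrg1 were thus both lower in the NLS-N-VEGF dox library than in the N-VEGF dox library, although the NLS-N-VEGF dox library 2_290419 lay above the N-VEGF dox libraries 1_120519 and 2_120519, and both were highest in library 2_290419 in each population. In 12 of the 15 the log2 fold change was smaller in size in NLS-N-VEGF cells, and in Spon2, Mgp and Src it was larger. The 15 were chosen by their values in N-VEGF cells, which favours larger values there. This count therefore does not say in which population dox acted more strongly.

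**Figure D4:**
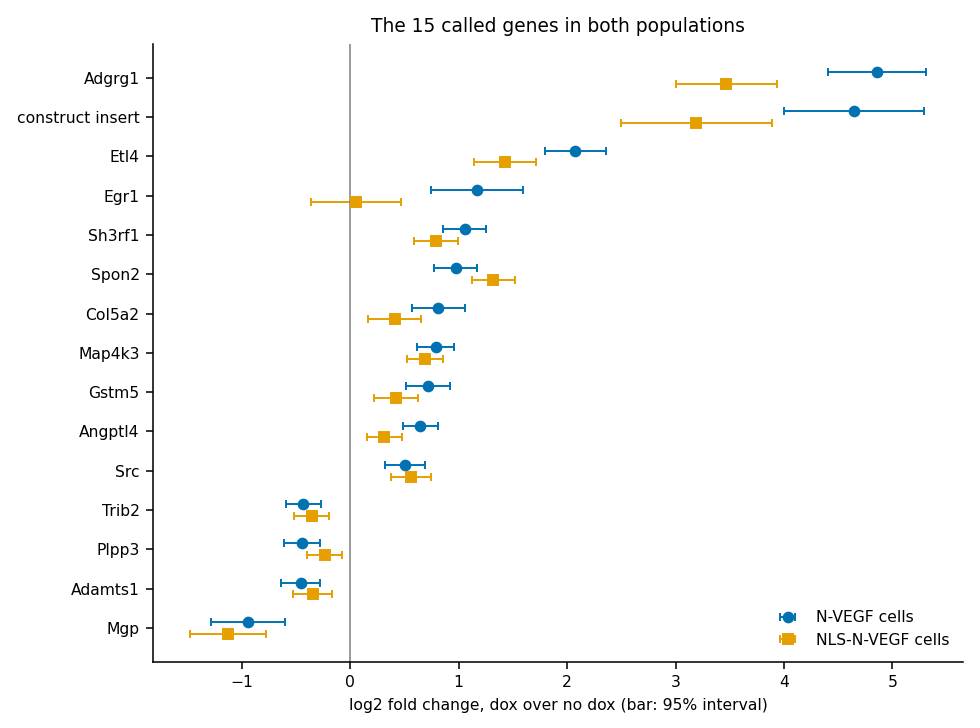
Log2 fold change of dox over no dox for the 15 called features in N-VEGF cells (circles) and NLS-N-VEGF cells (squares), with 95% intervals from the edgeR fit to 12 libraries. All 15 had the same sign, and Egr1 lay at 1.17 in N-VEGF cells and 0.06 in NLS-N-VEGF cells.

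Whether the effect of dox differed between the populations was tested directly. Such a difference was called for 0 of 13608 genes (0%) in edgeR's quasi-likelihood test. At an unadjusted p under 0.05 there were 464 genes, fewer than the 735 for dox in N-VEGF cells. In DESeq2 with the block 0 genes were called for the difference. There 295 had a p under 0.05 before adjustment, against 501 for dox in N-VEGF cells. No response is therefore called particular to N-VEGF cells. For 8 of the 15 called features the 95% interval of the difference excluded 0. These intervals are not adjusted for the number of genes tested, and the 15 were chosen by their values in N-VEGF cells. For Adgrg1 the difference, N-VEGF minus NLS-N-VEGF, was 1.39 (95% interval 0.59 to 2.19), for the construct 1.46 (0.27 to 2.64) and for Egr1 1.11 (0.51 to 1.71), each with an adjusted p of 0.9998. For Map4k3 and Src it was 0.10 (-0.14 to 0.33) and -0.06 (-0.32 to 0.20).

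The number of calls depended on the treatment of the pairs. With no replicate block 5 of the 15 were called, namely Adgrg1, Map4k3, Etl4, the construct and Spon2 (adjusted p = 0.00227, 0.00953, 0.0236, 0.0412 and 0.0412), all higher and 0 lower. Adgrg1 and Map4k3 passed in every setting tried, and Src, Trib2, Plpp3 and Adamts1 in 8 of 17. The 4 lower calls, Mgp, Plpp3, Trib2 and Adamts1, were each lost without the no dox library 2_120519 and without any one of the 3 dox libraries. In these fits the log2 fold change of Mgp was -0.82 to -1.03 and the log2 fold change of Plpp3 was -0.37 to -0.52. Without the dox library 1_120519 the adjusted p of Mgp and Trib2 was 0.0509, that of Plpp3 0.0964 and that of Adamts1 0.107.

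**Figure D5:**
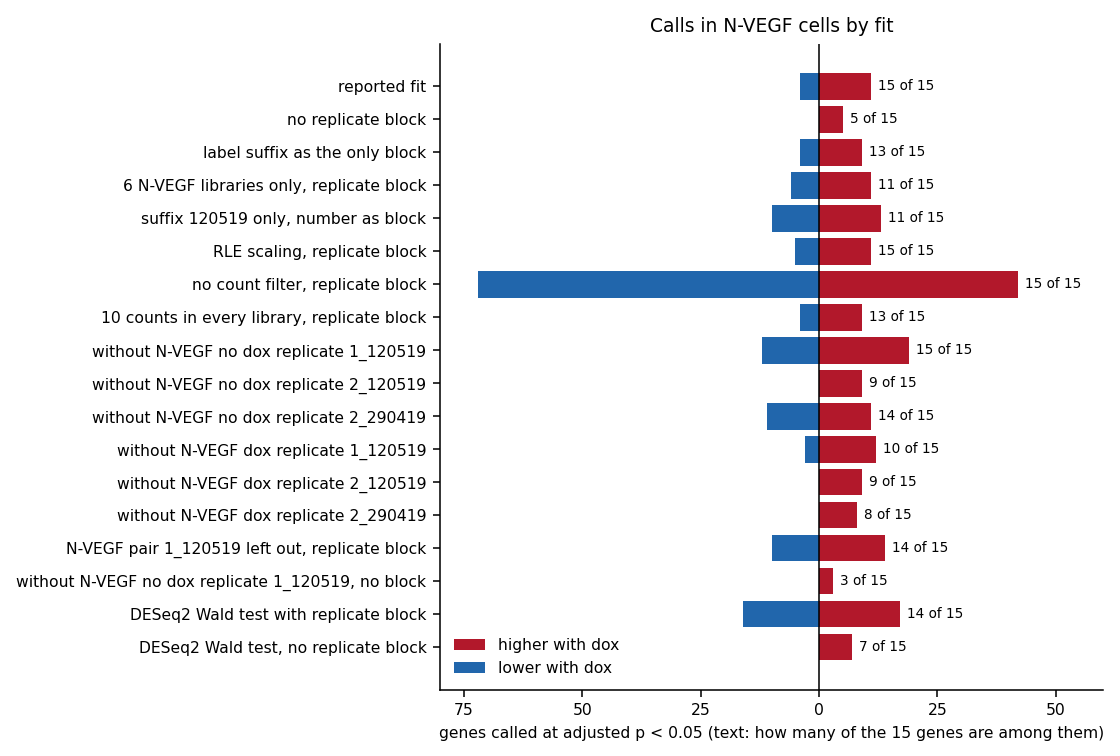
Genes called at an adjusted p of 0.05 in N-VEGF cells under each setting, higher to the right and lower to the left of 0; the text beside a bar gives how many of the 15 are among them. The count ran from 3 to 114, and 5 of the 15 passed with no replicate block.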

How the data were processed

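RNA was extracted and sequenced as single reads from 12 libraries of fibroblasts, of which 6 are N-VEGF libraries. According to the submitters' processing notes, reads were checked with FastQC 0.11.5, trimmed with Trim Galore and cutadapt 1.10, aligned with TopHat2 2.1.0 and Bowtie2 2.2.6 to GRCm38 and counted with HTSeq 0.6.1, and DESeq2 1.18.1 was used by the authors. What the authors deposited are counts for 54447 features, not normalized. The library kit does not mark strand, and the strand option of counting is not given in the sources used here.

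Counts were tested with edgeR 4.0.16 in R 4.3.3. Genes were filtered with filterByExpr by group, TMM factors set the library sizes, and a quasi-likelihood model with a mean per group and the replicate label as a block was fitted to all 12 libraries. Tests were two-sided with Benjamini-Hochberg adjustment over all genes tested, and a call has an adjusted p under 0.05. Adjusted p-values are from this fit unless another is named. CPM uses the TMM-scaled library size. Standard errors and 95% intervals were derived from the F statistic. The common biological coefficient of variation was 7.86% with and 15.5% without the block. The replicate label was used as a block because the libraries compared are paired by this label. Deviations from the group means over 12058 genes correlated by 0.46, 0.55 and 0.76 in the 3 N-VEGF pairs. They correlated by at least 0.40 in all 18 pairs of groups with the same label, with a mean of 0.59. Libraries with the same suffix and another number correlated by 0.47 on average (12 pairs), against 0.51 for the 12 pairs of that suffix with the same label. Libraries with another suffix correlated by -0.61 (24 pairs), so the correlations separate the suffix far more than the number. The deviations of 3 libraries from their mean sum to 0, which forces part of the negative correlations. No replicates agreed within sampling noise (chi-square per degree of freedom from 3.08 to 76.1).

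Genes were named by a rule. It takes the construct, Vegfa and Hif1a and every call. Added are up to 10 genes called without the no dox library 1_120519, or without the block, but not in the fit with both. From each list it takes up to 4 members by smallest p (mean of 1 CPM or more, 1 direction in 3 pairs). Genes that the text of the study mentions and tested genes within 200000 bases of the 4 leading genes are also taken. Kdr, Cldn5, Erg, Malat1, mt-Co3 and the genes of the library that stood apart were named after their values were seen. The 30 gene lists were written from general knowledge or copied as names from the study, and each is described by counts and medians. The members, lists and tests were chosen with earlier results of these data known. Exon overlap was taken from GENCODE release 21 for mouse, and promoter windows from RefSeq. Alternatives were the fit without the block, other blocks, subsets of libraries, RLE scaling, other count filters, DESeq2 1.42.0 and leaving out libraries.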

Additional observations from a re-analysis of the deposited data

Results flagged for a closer look

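Opposite signs of the dox effect in all 3 pairs of N-VEGF and all 3 of NLS-N-VEGF cells were sought with no limit on size. They were found for 291 of the 13608 genes tested (2.14%), for 11 of the 127 genes of the naming rule and for 1 of the gene lists. The naming rule asks list members for 1 direction in the 3 N-VEGF pairs, so its count cannot be compared with the share of all genes. Among genes whose values are given, 1 had such opposite signs. Map4k1, a kinase of blood cells from the family of Map4k3, was at 2.64, 2.34 and 1.92 CPM in the N-VEGF libraries without dox and at 1.625, 1.085 and 1.272 CPM in those with dox. The NLS-N-VEGF libraries were at 1.495, 1.257 and 2.213 CPM before induction and at 1.821, 1.325 and 2.487 CPM after it. The difference of its effects was -0.99 on the log2 scale (unadjusted p = 0.02, edgeR adjusted p = 0.9998), so it did not pass. The median of 23 cholesterol synthesis genes was -0.0860, -0.00286 and -0.0941 in the N-VEGF pairs and 0.2099, 0.1668 and 0.0245 in the NLS-N-VEGF pairs. The difference of the medians was -0.24, and it was not tested. Both were picked for their signs.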

How the results depend on the processing

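The construct rose and the 14 called genes kept their direction under every alternative that gave a value, and the difference between the populations was called for 0 genes in all but 2 settings. The 15 calls became 5 with no replicate block, 23 in the libraries 1_120519 and 2_120519 alone, 114 with no count filter (42 higher and 72 lower), 24 without the pair 1_120519, 33 in DESeq2 with the block and 7 in DESeq2 without it. Leaving out a single N-VEGF library gave 8 to 31. Without the no dox library 1_120519, 31 genes were called. Without the no dox library 2_120519 or the dox library 2_120519 there were 9 each, and without the dox library 2_290419 there were 8. Leaving out the no dox library 1_120519 with no block, an alternative chosen after seeing the data, gave 3 calls, and the construct then had a log2 fold change of 4.43 (adjusted p = 0.356). The remaining settings gave 13 to 17 calls, or 22 without the no dox library 2_290419. With the suffix as the only block, 13 of the 15 were called. Only 10 of the 15 were among the 15 calls without the dox library 1_120519, and 11 among the 17 calls in the 6 N-VEGF libraries alone, where Src, Trib2, Plpp3 and Adamts1 had adjusted p of 0.203, 0.140, 0.124 and 0.183. The difference of the dox effects was called for 6 genes in the libraries 1_120519 and 2_120519 alone and for 9 with no count filter, which tests 31229 features. The cause of the other changes was not tested.

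Vegfa and Hif1a, near 0 throughout, changed sign. Without the pair 1_120519 the log2 fold change of Vegfa was -0.0754 and that of Hif1a -0.0712. The log2 fold change of Hif1a was -0.00305 in the 6 N-VEGF libraries alone, -0.000808 with no count filter and -0.00442 in DESeq2 with the block. Leaving out a single library gave -0.0661 to 0.0877 for Vegfa and -0.0683 to 0.0835 for Hif1a. No adjusted p of either gene was under 0.05. Replicates were 3 per group. The filter of 10 counts in every library left no value for the construct. Genes near 1 CPM rest on few counts, and changes in them may have been missed at this depth.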

Other observations

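The no dox library 1_120519 of N-VEGF cells was compared with the other 7 libraries labelled 1_120519 or 2_120519, on log2 of CPM plus 2. It was at least 2-fold below their mean for 45 genes and at least 2-fold above it for 1. Malat1, a nuclear non-coding RNA, was lowest at -2.00. Clk1, a kinase of splicing factors, had -1.27, the translation factor gene Eif4a2 -1.44 and the small nucleolar RNA host Gas5 -1.23. Aldh3a1, an aldehyde dehydrogenase, was highest at 1.001, with 32.9 CPM against 9.79 to 20.3 CPM. Genes of this paragraph were chosen after their values were seen.

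The mitochondrially encoded genes did not all have the same sign in that library. Their median was -0.67 relative to the other 7, but mt-Co3, which encodes a subunit of complex IV, had 6998 CPM in it against 5172 and 5219 in the other N-VEGF libraries without dox. With dox it had a log2 fold change of -0.02, the only one of the 13 below 0. This gene was chosen after its values were seen.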
